A study of Mus musculus with 12 samples.

Results

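Chemokines and their receptors were measured in the mouse left ventricle 7 days after myocardial infarction (MI) or sham surgery. Members were all genes of the deposited expression table whose symbols begin with Ccl, Cxcl, Cx3cl, Xcl, Ccr, Cxcr, Cx3cr, Xcr or Ackr followed by a number. The rule found 59 of 18050 genes, namely 36 ligands, 19 signalling receptors and 4 atypical receptors. It used names only and no measured value.

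Chemokines are small secreted proteins that draw leukocytes along concentration gradients, and they are grouped as CC, CXC, CX3C or XC by the spacing of their first cysteines. They bind receptors with a heptahelical fold that signal through inhibitory G proteins to lipid kinases, Rac and actin. Atypical receptors bind chemokines without this G protein signal and remove or present them. In the injured heart the family is best known for bringing in neutrophils and monocytes and for holding resident and recruited macrophages.

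RNA was sequenced from the left ventricles of wild-type mice that had undergone sham surgery or MI, with tissue taken on day 7 in both groups. MI is the label's abbreviation, read here as myocardial infarction, and neither the method of injury nor the strain, age or sex is given in the sources used here. Each group held 6 libraries. The submitters' processing notes separate replicates 1 and 2, for which no program is listed, from replicates 3 to 6, so every comparison was also made within each of these replicate sets. The labels do not say whether replicates came from separate animals, so p-values reflect nothing but how far these libraries differ, and that spread could be technical.

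Expected counts per library summed to between 9140353 and 18602226. Replicates 3 to 6 lay close together, with a biological coefficient of variation of 0.0294 in sham and 0.0209 in MI. In replicates 1 and 2 it was 0.11 for sham and 0.19 for MI. MI replicates 3 to 6 stood apart in other ways. Summed lung epithelium markers reached 157 to 161 CPM (counts scaled to a common library total) there and at most 0.36 CPM in the other 8 libraries, where Sftpa1 and Sftpd were at 0. The 4 of 5 lung markers that were tested were called higher. They had enough counts to be tested only through MI replicates 3 to 6, and 0 of the 5 could be tested within replicates 1 and 2. The beta-globin copies Hbb-bs and Hbb-bt made up 0.0596% to 0.194% of beta-globin CPM in MI replicates 3 to 6 and at least 99.88% elsewhere. Cardiomyocyte markers, all 6 of which fell, summed to 50119 to 73688 CPM in sham, 5029 to 8280 in MI replicates 1 and 2 and 19183 to 19660 in MI replicates 3 to 6. All 5 fibroblast markers rose. None of these differences between the sets can be told apart from whatever else separates them. The lung markers and beta-globin copies also separate MI from sham within replicates 3 to 6. Change after MI in those libraries, which every test except that of replicates 1 and 2 uses, cannot be told apart from these differences.

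Members whose groups differed were for the most part higher after MI. Of the 47 members with enough counts to be tested, 30 rose, 2 fell (the ligand Ccl21a and the atypical receptor Ackr3) and 15 were not called. Of all 14456 genes tested by the same rule, 27.3% were called higher and 28.7% lower. A gene was called only where edgeR's quasi-likelihood test passed a Benjamini-Hochberg adjusted p of 0.05 both in the 12 libraries and with replicates 3 to 6 of each group summed into 1 column, with the same sign. The median log2 fold change of the tested members was 2.03, and that of all tested genes 0.03. With the 12 libraries alone, 33 members were called higher and 6 lower, while of all genes 37.9% were called higher, 37% lower and 75% either way. Where the groups of a member are said not to overlap, this describes that member alone, as the share of all genes with such separation is not given here. In bulk tissue, more cells of a type and more RNA per cell cannot be told apart.

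By role, 20 of 32 tested ligands rose and 1 fell, with 11 of 18 CC ligands and 7 of 12 CXC ligands rising. Among tested receptors, 9 of 11 signalling receptors rose and 2 were not called, while of the 4 atypical receptors 1 rose, 1 fell and 2 were not called. Of the 47, 12 members passed the minimum of 0.696 CPM in fewer than 2 sham libraries and so were tested mainly through MI (Ackr1, Ccl3, Ccl17, Ccr7, Ccr9, Cxcl2, Cxcl3, Cxcl10, Cxcl15, Cxcl17, Cxcr3 and Xcl1). Of these 10 were called higher. Among the other 35, 20 were called higher, 2 lower and 13 not at all. Summed over all members, levels were 674 to 813 CPM in sham and 1121 to 1543 CPM in MI.

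**Figure D1:**
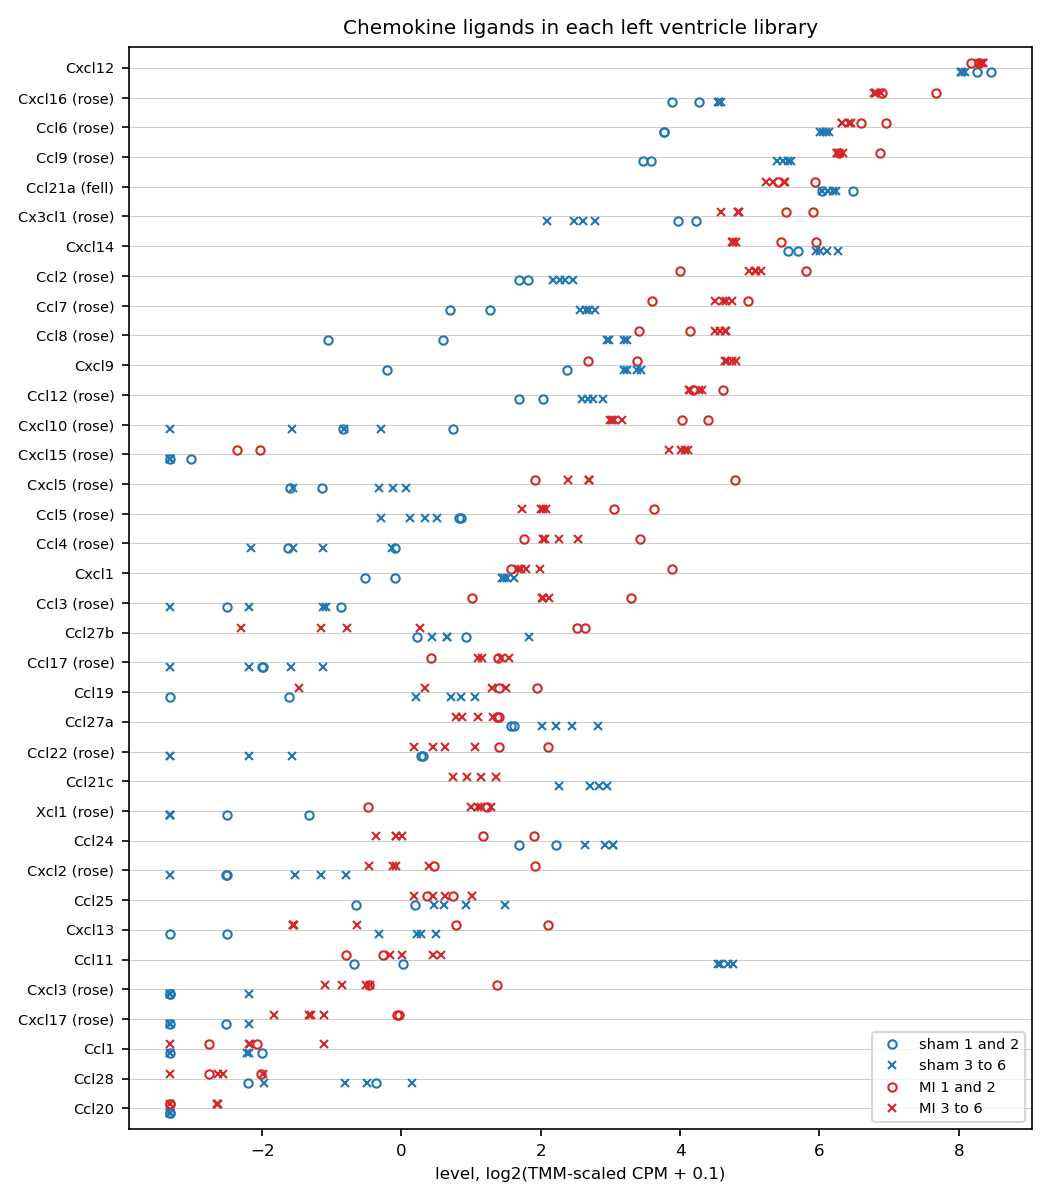
Level of each counted ligand in each of the 12 libraries, as log2 of TMM-scaled CPM plus 0.1, with open circles for replicates 1 and 2 and crosses for replicates 3 to 6 (sham blue, MI red). Ligands are ordered by mean level in MI, and "rose" or "fell" marks those called by both tests; Cxcl12 lies highest with overlapping groups, while Cxcl16, Ccl2 and Cxcl10 have every MI library above every sham library.

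Promoters of the family were searched for 2 motifs of inflammatory transcription factors, and 4 that hold matches are shown as examples from CXC ligands of chromosome 5. The RefSeq table for GRCm38.p6 held a promoter for 45 of the 59 members. In the 250 bases before the transcription start, searched on both strands, the NF-kappaB motif matched 9 of these 45 genes (Ackr2, Ccl9, Ccl20, Ccr3, Ccr6, Cxcl1, Cxcl2, Cxcl3 and Cxcl10), and 4.46% of all 27025 genes with a promoter there. The interferon-stimulated response element, searched as GAAA, any 2 bases and GAAA, matched 3 of 45 (Ccl19, Cxcl10 and Cxcl14) and 3.46% of all genes. A match describes letters only, and no match says only that these letters are absent from this window.

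The 250 bases before the start are printed 5′ to 3′ on the gene's strand for Cxcl10, which matches both motifs, and for the 3 neighbouring ligands of the receptor Cxcr2. Capitals mark the matches. In Cxcl10 (minus strand, chr5:92348890-92349139) the first capitals are the interferon element and the other 2 runs are NF-kappaB matches. In Cxcl1 (plus strand, chr5:90890995-90891244), Cxcl2 (plus strand, chr5:90903649-90903898) and Cxcl3 (plus strand, chr5:90785851-90786100) the capitals are 2 NF-kappaB matches that overlap.
Cxcl10: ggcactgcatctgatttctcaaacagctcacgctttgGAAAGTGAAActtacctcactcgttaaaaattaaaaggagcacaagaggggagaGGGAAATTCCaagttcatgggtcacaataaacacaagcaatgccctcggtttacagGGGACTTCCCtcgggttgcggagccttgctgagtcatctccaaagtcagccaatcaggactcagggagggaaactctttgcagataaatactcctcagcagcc
Cxcl1: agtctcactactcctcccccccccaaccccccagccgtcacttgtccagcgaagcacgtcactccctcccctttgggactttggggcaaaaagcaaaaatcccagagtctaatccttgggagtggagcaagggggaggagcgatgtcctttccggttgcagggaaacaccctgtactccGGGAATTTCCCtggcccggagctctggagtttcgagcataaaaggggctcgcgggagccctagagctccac
Cxcl2: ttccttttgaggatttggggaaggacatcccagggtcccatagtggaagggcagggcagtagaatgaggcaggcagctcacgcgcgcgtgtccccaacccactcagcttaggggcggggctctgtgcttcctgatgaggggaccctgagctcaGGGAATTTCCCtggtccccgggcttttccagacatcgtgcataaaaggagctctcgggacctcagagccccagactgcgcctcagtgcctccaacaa
Cxcl3: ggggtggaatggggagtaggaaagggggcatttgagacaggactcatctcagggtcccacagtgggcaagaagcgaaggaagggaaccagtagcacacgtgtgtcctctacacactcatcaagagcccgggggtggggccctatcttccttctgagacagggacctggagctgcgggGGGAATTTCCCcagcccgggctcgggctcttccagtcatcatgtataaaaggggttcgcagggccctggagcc
All 3 Cxcr2 ligands carry the same 11 capital letters. Of the 4, Cxcl10, Cxcl2 and Cxcl3 rose and Cxcl1 was not called, with the values given under each group. Among ligands with a promoter in the table, 4 of 13 that rose and 2 of 13 that were not called higher or not tested (Cxcl1, and Ccl20 with 0 to 3 counts) held an NF-kappaB match.

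Ligands of Ccr2, the receptor by which inflammatory monocytes leave the marrow and enter tissue, rose together. Ccl2, the main monocyte attractant, measured 3.13 and 3.43 CPM in sham replicates 1 and 2 and 15.8 and 55.7 CPM in MI replicates 1 and 2, then 4.76, 5.43, 4.99 and 4.44 CPM in sham replicates 3 to 6 and 33.8, 35.7, 34.1 and 31.8 CPM in MI replicates 3 to 6. Every MI library lay above every sham library. Its log2 fold change was 3.01 (SE 0.27, adjusted p = 8.69e-07, and 0.00391 with replicates 3 to 6 counted once). Ccl7, which also binds Ccr2 and Ccr1, went from 1.53 to 6.77 CPM in sham to 12 to 31.3 CPM in MI, with a log2 fold change of 2.43 (SE 0.29). Ccl12, a rodent Ccr2 ligand, went from 3.13 to 7.32 CPM to 17.4 to 24.4 CPM (1.86, SE 0.18). Neither Ccl7 nor Ccl12 overlapped between groups. Ccl8, listed here as a ligand of Ccr8 and not of Ccr2, also rose, while Ccr8 had too few counts to be tested. The fitted log2 change of Ccl8 was 2.09 (SE 0.34), 3.95 in replicates 1 and 2 and 1.56 in replicates 3 to 6. These genes lie in a block of 6 CC ligands on chromosome 11 (GRCm38.p6 chr11:82035577-82179812, Ccl2, Ccl7, Ccl11, Ccl12, Ccl8 and Ccl1), of which 5 were tested and 4 rose.

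Ligands that act on macrophages, monocytes and T cells, several of them through Ccr1, sit in a neighbouring block of the same chromosome (chr11:83525778-83664683, Ccl5, Ccl9, Ccl6, Ccl3 and Ccl4), and all 5 rose. Ccl3 was at 0.0764 and 0.447 CPM in sham replicates 1 and 2 and 0, 0.37, 0.119 and 0.36 CPM in sham replicates 3 to 6, against 1.91 and 9.68 CPM in MI replicates 1 and 2 and 4, 4.26, 3.96 and 3.97 CPM in MI replicates 3 to 6. MI replicate 2 was the highest library and no group overlapped. The log2 fold change of Ccl3 was 4.31 (SE 0.53, adjusted p = 1.29e-05, and 0.00735 with replicates 3 to 6 counted once). Ccl4, its close relative, went from 0.123 to 0.84 CPM in sham to 3.29 to 10.6 CPM in MI, a log2 fold change of 3.62 (SE 0.42). Ccl5, also made by T cells and platelets, went from 0.713 to 1.71 CPM to 3.24 to 12.3 CPM (2.17, SE 0.2). All 3 ligands were higher in every MI library than in any sham library.

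Ccl6 and Ccl9, macrophage-made ligands of Ccr1, were the rising ligands whose change differed between the replicate sets by both tests. Ccl6 was at 13.5 and 13.6 CPM in sham replicates 1 and 2 and 96.8 and 125 CPM in MI replicates 1 and 2, but at 70.5, 66.3, 67.9 and 64.6 CPM in sham and 85.8, 87.7, 80.1 and 80.4 CPM in MI of replicates 3 to 6. The sham libraries of the sets differed more than the MI libraries did. The log2 fold change of Ccl6 was 3.03 in replicates 1 and 2, 0.36 in replicates 3 to 6 and 1.14 over all 12 libraries (SE 0.39, adjusted p = 0.0191, and 0.027 with replicates 3 to 6 counted once), and the call was lost without any of sham replicate 1 (0.83), sham replicate 2 (0.83), MI replicate 1 (1.09) or MI replicate 2 (0.99). Ccl9 was at 11 and 11.9 CPM in sham and 77.3 and 116 CPM in MI of replicates 1 and 2, and at 48.2, 41.8, 44.3 and 46.5 CPM in sham and 76, 81.2, 75.9 and 77.9 CPM in MI of replicates 3 to 6. Ccl9 changed by 1.5 on the log2 scale (SE 0.34), and its call was lost without sham replicate 1 (1.23) or sham replicate 2 (1.25). Resident macrophage markers, of which 1 of 4 fell and 3 were not called, summed to 83.9 to 92.4 CPM in sham and 83.3 to 93.2 CPM in MI of replicates 1 and 2, and to 235 to 247 CPM in sham and 151 to 161 CPM in MI of replicates 3 to 6, with none at 0. The marker sums overlapped between sham and MI in replicates 1 and 2, and were higher in sham than in MI in replicates 3 to 6. Their part in the result was not tested.

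Ccl17 and Ccl22, ligands of the T cell receptor Ccr4, and Cx3cl1 lie together on chromosome 8 (chr8:94745684-94812038), and all 3 rose. The log2 fold change was 3.64 (SE 0.37) for Ccl17 and 2.37 (SE 0.44) for Ccl22. Their levels stayed low, at most 2.83 CPM for Ccl17 and 4.22 CPM for Ccl22 in any MI library.

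The ligands of Cxcr2, the receptor that brings in neutrophils, were at a few CPM or less in sham. Cxcl5 was at 0.229 and 0.354 CPM in sham replicates 1 and 2 and 3.67 and 27.6 CPM in MI replicates 1 and 2, and at 0.697, 0.816, 0.95 and 0.24 CPM in sham and 5.17, 6.35, 6.33 and 6.38 CPM in MI of replicates 3 to 6. Every MI library lay above the sham libraries, and MI replicate 2 lay far above the rest. Fitted over all 12 libraries, the change of Cxcl5 was 4.06 on the log2 scale (SE 0.61, adjusted p = 6.34e-05, and 0.0116 with replicates 3 to 6 counted once), with the call lost without sham replicate 1 (3.72) or sham replicate 2 (3.80). Cxcl2 rose by a log2 fold change of 2.82 (SE 0.62), from 2 counts in sham to 107 in MI over replicates 1 and 2 and from 9 to 58 over replicates 3 to 6. Cxcl3 had 0 counts in sham replicates 1 and 2 and 67 in the MI libraries, at least 13.9-fold higher when the floor of 3 counts over the group stands for 0. In replicates 3 to 6, Cxcl3 had 1 count in sham and 34 in MI, a ratio of 17.2 with an exact 95% counting interval of 2.88 to 698. Cxcl1 was not called: its log2 fold change was 1.31 (SE 0.57, adjusted p = 0.0527, and 0.0882 with replicates 3 to 6 counted once), 3.61 in replicates 1 and 2 and 0.34 in replicates 3 to 6. Cxcl5, Cxcl3, Cxcl15, Cxcl1 and Cxcl2 form 1 block on chromosome 5 (chr5:90759298-90905938), in which 4 of 5 rose.

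Cxcl15, known as lungkine and as a product of airway epithelium, had the largest fitted change of the family and was found almost entirely in 4 libraries. It was at 16.7, 17.3, 16 and 14.2 CPM in MI replicates 3 to 6, from 1063 counts, and at 0 counts in sham replicates 3 to 6, which is at least 179-fold higher with the floor of 3 counts over the group. In replicates 1 and 2 there were 0 rounded counts in sham and 5 in MI, 0.144 and 0.0945 CPM. The MI libraries with Cxcl15 are those with lung epithelium markers (157 to 161 CPM), whose part in this result was not tested. The log2 fold change of 9.98 over 12 libraries rests on a group at 0 and is no estimate of size. Its call by both tests was lost with DESeq2 (7.59), with limma on log2(FPKM + 1) (2.23) and log2(FPKM + 0.1) (4.54), and without the label set as a covariate (10.2).

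Among ligands of Cxcr3, the receptor of activated T and NK cells, Cxcl10 showed the clearest rise. Cxcl10, an interferon-induced chemokine, was at 0.458 and 1.56 CPM in sham replicates 1 and 2 and 0.465, 0, 0.238 and 0.72 CPM in sham replicates 3 to 6, against 20.9 and 16.3 CPM in MI replicates 1 and 2 and 7.99, 7.87, 8.87 and 8.22 CPM in MI replicates 3 to 6. The lowest MI library stood above the highest sham library. Its log2 fold change was 4.33 (SE 0.32, adjusted p = 1.51e-07, and 0.00135 with replicates 3 to 6 counted once), 4.19 in replicates 1 and 2 and 4.53 in replicates 3 to 6. Of its exons, 5.91% overlap another gene on the other strand. Cxcl9, the next gene on the chromosome and also interferon-induced, was not called, with 1.44 (SE 0.26, adjusted p = 0.000295, and 0.0771 with replicates 3 to 6 counted once). Its replicates 1 and 2 spread from 0.769 and 5.08 CPM in sham to 6.32 and 10.3 CPM in MI.

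The 2 ligands made as membrane-bound proteins and shed by proteases rose in both replicate sets. Cxcl16, which macrophages also use as a scavenger receptor, was at 14.7 and 19.2 CPM in sham and 119.5 and 204 CPM in MI of replicates 1 and 2, and at 23.3, 23.4, 23.4 and 24 CPM in sham and 111, 110.5, 118 and 112 CPM in MI of replicates 3 to 6. Sham and MI libraries did not overlap, and MI replicate 2 was the highest. Its log2 fold change was 2.6 (SE 0.19, adjusted p = 1.13e-07, and 0.00165 with replicates 3 to 6 counted once). Zmynd15 on the other strand covers 18.3% of the Cxcl16 exons, and with strandedness not given in the sources used here its reads cannot be told apart there. Cx3cl1, or fractalkine, was at 15.6 and 18.6 CPM in sham and 45.6 and 60.0 CPM in MI of replicates 1 and 2, and at 5.46, 6.79, 4.16 and 6 CPM and 28.5, 24, 28.7 and 28.3 CPM in replicates 3 to 6. On the log2 scale Cx3cl1 changed by 2.03 (SE 0.15), 1.63 in replicates 1 and 2 and 2.34 in replicates 3 to 6.

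Xcl1, a product of NK and T cells, was at 0.0764 and 0.298 CPM in sham and 0.62 and 2.25 CPM in MI of replicates 1 and 2. In replicates 3 to 6 it had 0 counts in sham and 139 in MI (2.1, 1.89, 2.05 and 2.35 CPM), at least 23.4-fold higher with the floor of 3 counts over the group. Over 12 libraries the log2 fold change of Xcl1 was 4.35 (SE 0.63, adjusted p = 4.72e-05, and 0.0268 with replicates 3 to 6 counted once). The call was lost without sham replicate 1 (4.35) or MI replicate 2 (4.08), and 18.7% of its exons overlap an antisense gene. All 3 NK cell markers rose, from sums of 0.611 to 2.04 CPM in sham to 2.43 to 7.84 CPM in MI replicates 1 and 2 and 16.4 to 17.9 CPM in MI replicates 3 to 6, with Klre1 at 0 in sham replicates 1 and 2. Their part in the Xcl1 result was not tested. Cxcl17, a mucosal chemokine, rose by 3.67 (SE 0.57) from 1 count in each set's sham libraries.

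Cxcl12, a ligand made in resting tissue, which acts on Cxcr4 and Ackr3 and is the most abundant ligand in CPM, was at 353 and 308 CPM in sham and 313 and 289 CPM in MI of replicates 1 and 2, and at 266, 272, 263 and 261 CPM in sham and 324, 325, 320.0 and 313 CPM in MI of replicates 3 to 6. The groups overlapped over the 12 libraries, and the sets differed in sign, with -0.13 in replicates 1 and 2 (adjusted p = 0.402) and 0.32 in replicates 3 to 6 (adjusted p = 1.3e-11). Over 12 libraries the log2 fold change was 0.14 (SE 0.08) and was not called. It was called higher, at 0.98, with limma on log2(FPKM + 1), where the median of all genes was 0.28. Scaling by library size alone moved that median to 0.44 and Cxcl12 to 0.55.

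Ccl21a, which guides Ccr7-bearing dendritic and T cells and is made by lymphatic endothelium, was the only ligand called lower by both tests. It was at 89.2 and 65.4 CPM in sham and 61.3 and 42.3 CPM in MI of replicates 1 and 2, and at 75.7, 73.5, 69.3 and 65.3 CPM in sham and 40.4, 45, 37.6 and 45.3 CPM in MI of replicates 3 to 6. Every MI library lay below every sham library. Its log2 fold change was -0.69 (SE 0.11, adjusted p = 7.52e-05, and 0.0331 with replicates 3 to 6 counted once), with the call lost without sham replicate 1 (-0.65) or MI replicate 2 (-0.62). It was also lost with library size alone (-0.28), limma on log2(FPKM + 1) (-0.28) or log2(FPKM + 0.1) (-0.29), no label set in the fit (-0.69), and a threshold of 0.01. Lymphatic endothelium markers summed to 123 to 171 CPM in sham and 74.5 to 79.9 CPM in MI, with 1 of 5 called lower, 4 not called and none at 0, and their part in the result was not tested. Ccl21a has the near-identical copy Ccl21c, so reads may be split between them. Ccl21c is blank in replicates 1 and 2, and the sum of both copies gave -0.73.

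Cxcl14, a chemokine of stroma and epithelium with no agreed receptor, was at 51.9 and 46.9 CPM in sham and 43.6 and 61.6 CPM in MI of replicates 1 and 2, and at 77.2, 69, 64.3 and 61.7 CPM in sham and 27.7, 27, 26.9 and 26.8 CPM in MI of replicates 3 to 6. The groups overlapped in the first set and were wide apart in the other. Ccl11, or eotaxin-1, a ligand of the eosinophil receptor Ccr3, was at 0.916 and 0.521 CPM in sham and 0.477 and 0.734 CPM in MI of replicates 1 and 2, but at 27.1, 23.3, 23.8 and 25.6 CPM in sham and 1.38, 0.794, 0.905 and 1.26 CPM in MI of replicates 3 to 6. High Ccl11 was thus a feature of 4 sham libraries. Ccl24, or eotaxin-2, changed by -0.41 on the log2 scale in the first set and -3.13 in the other. Ccl11, Ccl24 and Cxcl14 were called lower in the 12 libraries alone and not with replicates 3 to 6 counted once (adjusted p = 0.149, 0.14 and 0.339), so none is counted as fallen.

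Cxcl13, the B cell attractant, was at 0.0764 and 0 CPM in sham and 1.62 and 4.22 CPM in MI of replicates 1 and 2, and at 0.697, 1.11, 1.31 and 1.07 CPM in sham and 0.24, 0.244, 0.543 and 0.241 CPM in MI of replicates 3 to 6. The sets thus went opposite ways. B cell markers, none of 4 called, summed to 1.64 to 1.68 CPM in sham and 3.35 to 6.16 CPM in MI of replicates 1 and 2, and to 4.53 to 5.55 CPM and 2.44 to 4.50 CPM in replicates 3 to 6, with none at 0. Their part was not tested. Ccl27b, a copy of the skin chemokine Ccl27a, was at 1.07 and 1.8 CPM in sham and 6.13 and 5.61 CPM in MI of replicates 1 and 2, and at 1.47, 3.46, 1.47 and 1.26 CPM and 0.103, 1.1, 0.349 and 0.482 CPM in replicates 3 to 6. It was called higher in the first set (adjusted p = 0.00294) and lower in the other (adjusted p = 0.000281). The copies Ccl27a and Ccl27b can share reads, and their sum, chosen after these values were seen, gave 0.94 in replicates 1 and 2, -1.48 in replicates 3 to 6 and -0.65 over 12 libraries (adjusted p = 0.141).

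Ccl19 and Ccl25, which act on T cells and thymocytes, were not called, at 1.13 (SE 0.73) and 0.03 (SE 0.29). The Ccl19 change was 4.71 in replicates 1 and 2 (adjusted p = 0.00305) and 0.08 in replicates 3 to 6 (adjusted p = 0.857). For Ccl19 the test of the difference between sets passed in 12 libraries (adjusted p = 0.00529). It did not pass with replicates 3 to 6 counted once (adjusted p = 0.0617). Ccl27a was not called either, at -1.0 (SE 0.23). Ccl27a, Ccl27b, Ccl19 and Ccl21a all lie between bases 41769467 and 42773991 of chromosome 4, and of these 4 Ccl21a fell and the other 3 were not called.

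Of the 19 signalling receptors, 11 had enough counts to be tested, and 9 of these rose. Ccr2, the monocyte receptor, was at 3.54 and 4.12 CPM in sham and 20.3 and 52.2 CPM in MI of replicates 1 and 2, and at 10.05, 7.62, 9.97 and 12 CPM in sham and 65, 68.8, 66 and 68 CPM in MI of replicates 3 to 6. Groups did not overlap, and MI replicate 1 was the lowest MI library. Its log2 fold change was 2.91 (SE 0.21, adjusted p = 1.37e-07, and 0.00223 with replicates 3 to 6 counted once). Monocyte markers, of which 2 of 3 rose, summed to 3.29 to 8.98 CPM in sham, 81.6 to 90.8 CPM in MI replicates 1 and 2 and 70.9 to 77.5 CPM in MI replicates 3 to 6, with none at 0. Their part in the rise of Ccr2 was not tested.

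Cx3cr1, the fractalkine receptor of macrophages and patrolling monocytes, was at 11.7 and 20.5 CPM in sham and 53.8 and 98.5 CPM in MI of replicates 1 and 2, and at 6.04, 7.68, 5.78 and 6.2 CPM in sham and 52.1, 50.9, 52 and 56.2 CPM in MI of replicates 3 to 6. All MI libraries were above all sham libraries, and the fitted log2 change was 2.73 (SE 0.2, adjusted p = 1.64e-07, and 0.00276 with replicates 3 to 6 counted once). Ccr1, the receptor of Ccl3, Ccl5, Ccl6 and Ccl9, went from 1.22 to 6.84 CPM in sham to 9.59 to 26.4 CPM in MI, with 2.23 (SE 0.21). All 5 macrophage markers rose as well, with sums of 146 to 169 CPM in sham, 600 to 1095 CPM in MI replicates 1 and 2 and 497 to 518 CPM in MI replicates 3 to 6, none of them at 0, and their part in these receptor results was not tested.

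Cxcr4, the Cxcl12 receptor of leukocytes and progenitor cells, was at 6.72 and 8.79 CPM in sham and 33.3 and 55.6 CPM in MI of replicates 1 and 2, and at 7.9, 7.53, 9.03 and 10.6 CPM in sham and 43.9, 41.9, 45 and 37.7 CPM in MI of replicates 3 to 6. The groups did not overlap, and the sets gave close log2 fold changes of 2.52 and 2.31. Over 12 libraries it was 2.36 (SE 0.14, adjusted p = 2.43e-08, and 0.00136 with replicates 3 to 6 counted once). Cxcr6, the Cxcl16 receptor of T and NK cells, was at 0.382 and 0.521 CPM in sham and 5.77 and 7.16 CPM in MI of replicates 1 and 2, and at 0.813, 0.494, 0.475 and 1.68 CPM and 4.26, 4.94, 5.55 and 6.02 CPM in replicates 3 to 6. Cxcr6 changed by 3.0 on the log2 scale (SE 0.3), the largest among receptors called with a mean of at least 1 CPM in the higher group.

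Cxcr3, the receptor of Cxcl9 and Cxcl10, went from 0.153 to 0.697 CPM in sham to 1.51 to 3.76 CPM in MI (2.31, SE 0.33), and Ccr7 from 0.305 to 0.968 CPM to 1.09 to 4.95 CPM (1.96, SE 0.35), with the Ccr7 call lost without sham replicate 2 (1.97) or MI replicate 2 (1.85). T cell markers, of which 1 of 5 rose, summed to 1.59 to 8.79 CPM in sham, 17.0 to 17.6 CPM in MI replicates 1 and 2 and 8.63 to 9.70 CPM in MI replicates 3 to 6, and their part was not tested. None of them was at 0. Cxcr2, the neutrophil receptor, changed least of the signalling receptors that rose, from 0.79 to 3.58 CPM to 2.99 to 4.83 CPM with overlapping groups. Cxcr2 gave a fitted change of 0.98 on the log2 scale (SE 0.29, adjusted p = 0.0086, and 0.0399 with replicates 3 to 6 counted once), 2.16 in the first set and 0.51 in the other, and the call was lost without sham replicate 1 (0.82), sham replicate 2 (0.80), MI replicate 1 (0.99) or MI replicate 2 (0.81). Neutrophil markers, 1 of 5 of which rose, summed to 3.06 to 3.48 CPM in sham and 25.8 to 64.8 CPM in MI of replicates 1 and 2, and to 23.6 to 26.0 CPM and 41.8 to 43.7 CPM in replicates 3 to 6, with none at 0. Their part was not tested.

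Ccr9 and Xcr1 were the tested signalling receptors that were not called. Ccr9, which guides thymocytes and gut T cells, gave 2.02 (SE 0.5, adjusted p = 0.00295, and 0.128 with replicates 3 to 6 counted once), and an antisense gene covers 19% of its exons. Xcr1, the Xcl1 receptor of cross-presenting dendritic cells, was at 2.18 and 1.36 CPM in sham and 1.77 and 2.34 CPM in MI of replicates 1 and 2, and at 3.28, 3.76, 2.8 and 3.55 CPM and 2.33, 2.12, 2.57 and 2.47 CPM in replicates 3 to 6. For Xcr1 the log2 fold change was -0.26 (SE 0.18) and turned to 0.16 with library size alone. The dendritic cell markers, 1 of 4 of which rose, summed to 18.0 to 30.6 CPM in sham and 16.5 to 32.0 CPM in MI.

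**Figure D2:**
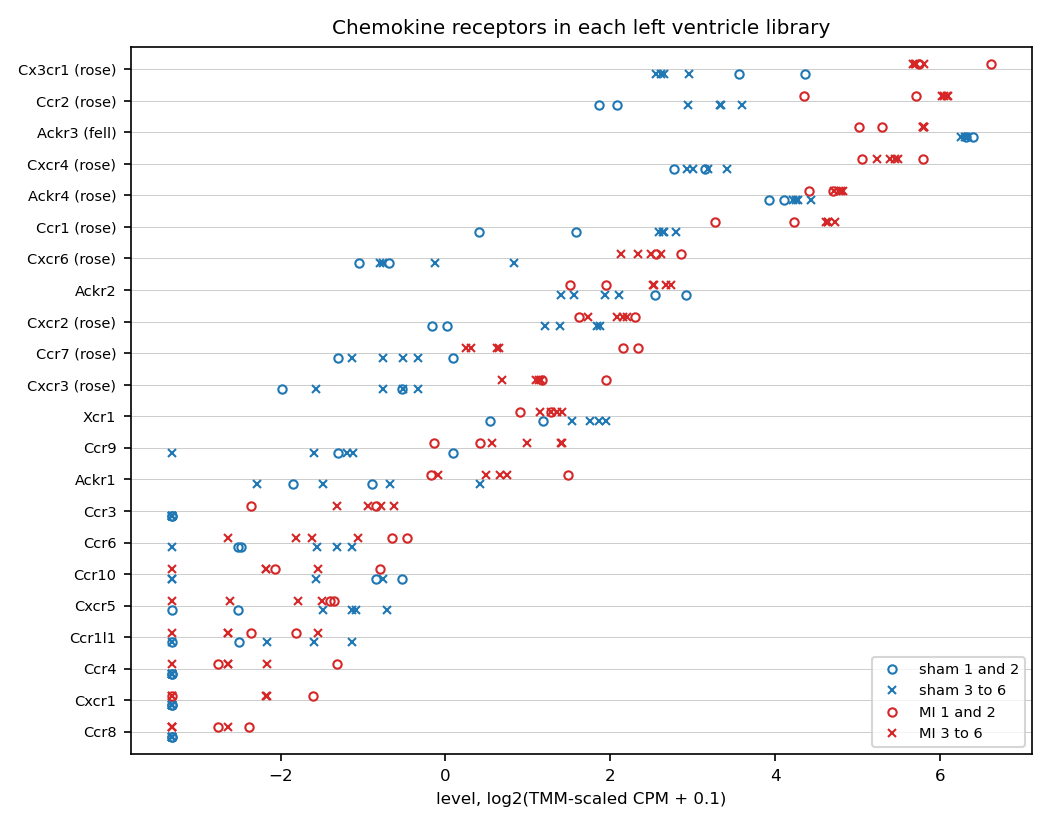
Level of 22 of the 23 receptors in each of the 12 libraries, as log2 of TMM-scaled CPM plus 0.1, with symbols as for the ligands. Cx3cr1, Ccr2, Cxcr4 and Ccr1 have every MI library above every sham library, and Ackr3 has every MI library below.

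Atypical receptors did not move together. Ackr3, which takes up Cxcl12 and is found on endothelium and mesenchymal cells, was at 80.0 and 84.6 CPM in sham and 39.4 and 32.3 CPM in MI of replicates 1 and 2, and at 76.8, 79.6, 79.2 and 81.4 CPM in sham and 55.4, 56, 55.5 and 56.1 CPM in MI of replicates 3 to 6. All MI libraries lay below all sham libraries. Ackr3 changed by -0.73 on the log2 scale (SE 0.11, adjusted p = 6.21e-05, and 0.00613 with replicates 3 to 6 counted once), and it was -0.32 with library size alone. Endothelial markers, 2 of 6 of which fell, summed to 793 to 1057 CPM in sham, 554 to 583 CPM in MI replicates 1 and 2 and 958 to 981 CPM in MI replicates 3 to 6, with none at 0, and their part was not tested.

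Ackr4, which removes Ccl19, Ccl21 and Ccl25, rose from 15.1 to 21.6 CPM in sham to 21.3 to 28.3 CPM in MI, with overlapping groups and a log2 fold change of 0.51 (SE 0.07). The Ackr4 call was lost without sham replicate 1 (0.48), sham replicate 2 (0.53) or MI replicate 2 (0.49). Ackr2, a scavenger of inflammatory CC ligands, was at 5.73 and 7.45 CPM in sham and 3.77 and 2.75 CPM in MI of replicates 1 and 2, and at 2.55, 4.2, 2.85 and 3.72 CPM and 5.65, 6.59, 5.67 and 6.32 CPM in replicates 3 to 6. It was called lower in the first set (-1.01, adjusted p = 0.0235) and higher in the other (0.92, adjusted p = 4.4e-06), and was not called over 12 libraries (0.2, SE 0.3). Ackr1, the Duffy receptor of venules and red cells, was not called at 1.75 (SE 0.51, adjusted p = 0.00774, and 0.0561 with replicates 3 to 6 counted once). It was called with DESeq2 (1.76), library size alone (2.16), limma on log2(FPKM + 1) (0.86) or log2(FPKM + 0.1) (1.95), and without sham replicate 4 (2.34) or MI replicate 3 (1.89), and 25.7% of its exons overlap Cadm3 on the same strand.

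Of 45 ligand-receptor pairs listed from textbook knowledge, 31 had both partners tested. Both partners rose in 17 pairs, among them Ccl2 with Ccr2, Ccl3 with Ccr1, Cxcl5 with Cxcr2, Cxcl10 with Cxcr3, Cxcl16 with Cxcr6 and Cx3cl1 with Cx3cr1. The ligand rose beside a receptor that was not called in 4 pairs: Xcl1 with Xcr1, Ccl2 with Ackr2, and Ccl2 and Cxcl5 with Ackr1. The receptor rose beside a ligand that was not called in 6, including Cxcl12 with Cxcr4. In 2 pairs the ligand fell while the receptor rose (Ccl21a with Ccr7 and with Ackr4). In 1 pair, Cxcl12 with Ackr3, the ligand was not called and the receptor fell, and in 1, Ccl25 with Ccr9, neither was called. No test compared partners, and pairs share members, so these counts are not independent. As 20 of 32 tested ligands and 9 of 11 tested signalling receptors rose, pairs with both higher would be common without any link between partners.

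**Figure D3:**
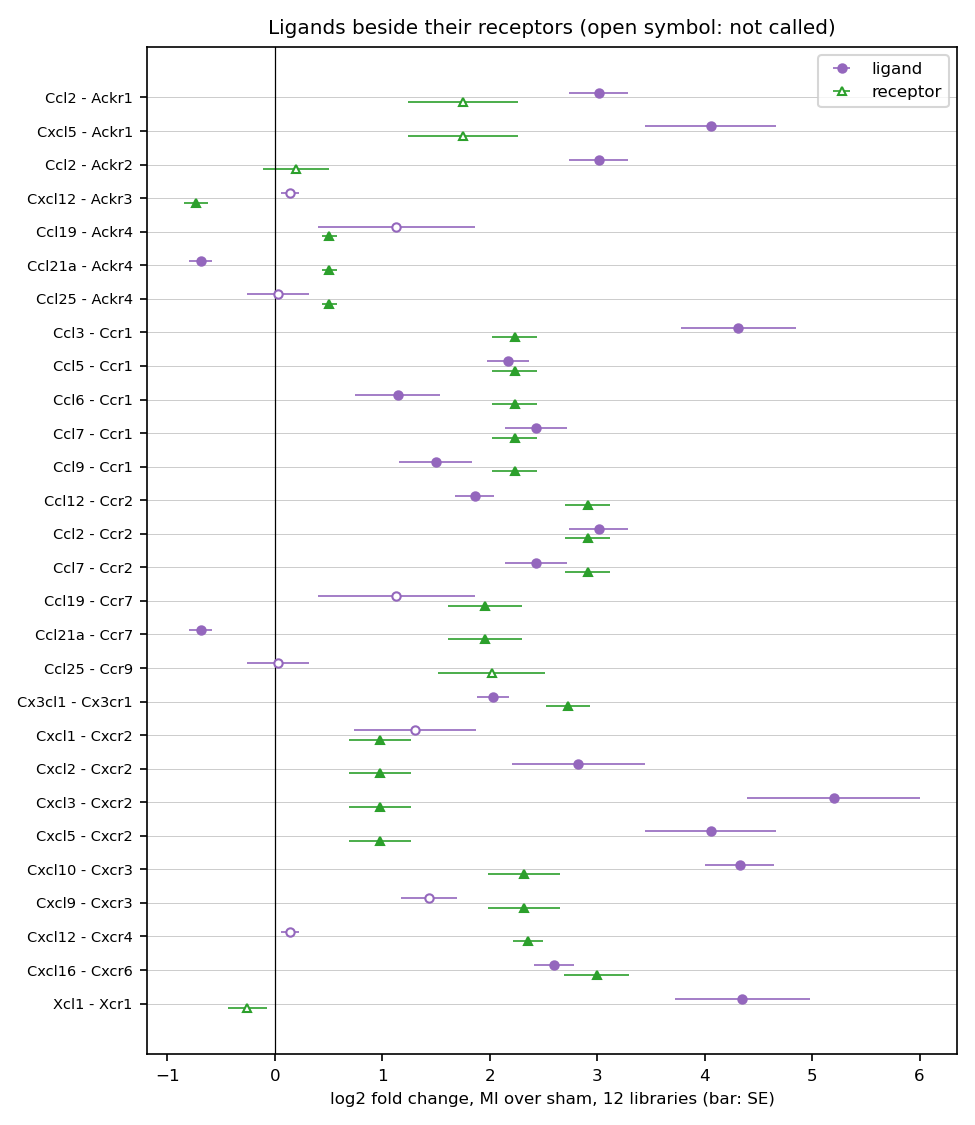
Log2 fold change (MI over sham, 12 libraries, bars are SE) of the ligand (circle) and receptor (triangle) of 28 of the 31 pairs with both partners tested, with open symbols for members not called. Most pairs lie right of 0 with both symbols filled; the Ccl21a pairs have the ligand left of 0, and the Cxcl12 pair with Ackr3 has the receptor there.

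Within replicates 1 and 2 alone, 35 of 47 tested members were called higher and 2 lower (Ackr2 and Ackr3), against 34.1% and 32.9% of all genes. Within replicates 3 to 6, 32 of 44 were called higher and 9 lower (Ackr3, Ccl11, Ccl21a, Ccl21c, Ccl24, Ccl27a, Ccl27b, Cxcl14 and Xcr1), against 42.2% and 39.5% of all genes. The fit of replicates 3 to 6 sees only the small spread among libraries that lie close together. The median change of the tested members was 2.84 in the first set and 1.55 in the other.

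The difference between the sets was tested itself, as an interaction. Both tests found it for 6 members, and in all 6 the change was more negative in replicates 3 to 6, where 3.41% of all genes were called in this direction, 6.13% in the other and 9.54% in either. The 6 were Ccl11 (-4.27, with adjusted p = 0.021 when replicates 3 to 6 were counted once), Ccl27b (-3.88, adjusted p = 0.025), Ccl6 (-2.72, adjusted p = 0.0138), Ccl9 (-2.3, adjusted p = 0.0245), Cxcl13 (-7.67, adjusted p = 0.0354) and Cxcl14 (-1.41, adjusted p = 0.047). All are ligands, and each is a difference of log2 fold changes. For Ccl11, Ccl6 and Ccl9 the sham libraries of the sets lay further apart than their MI libraries did. The count fell to 0 without sham replicate 1 or sham replicate 2 and rose to 16 without MI replicate 1.

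**Figure D4:**
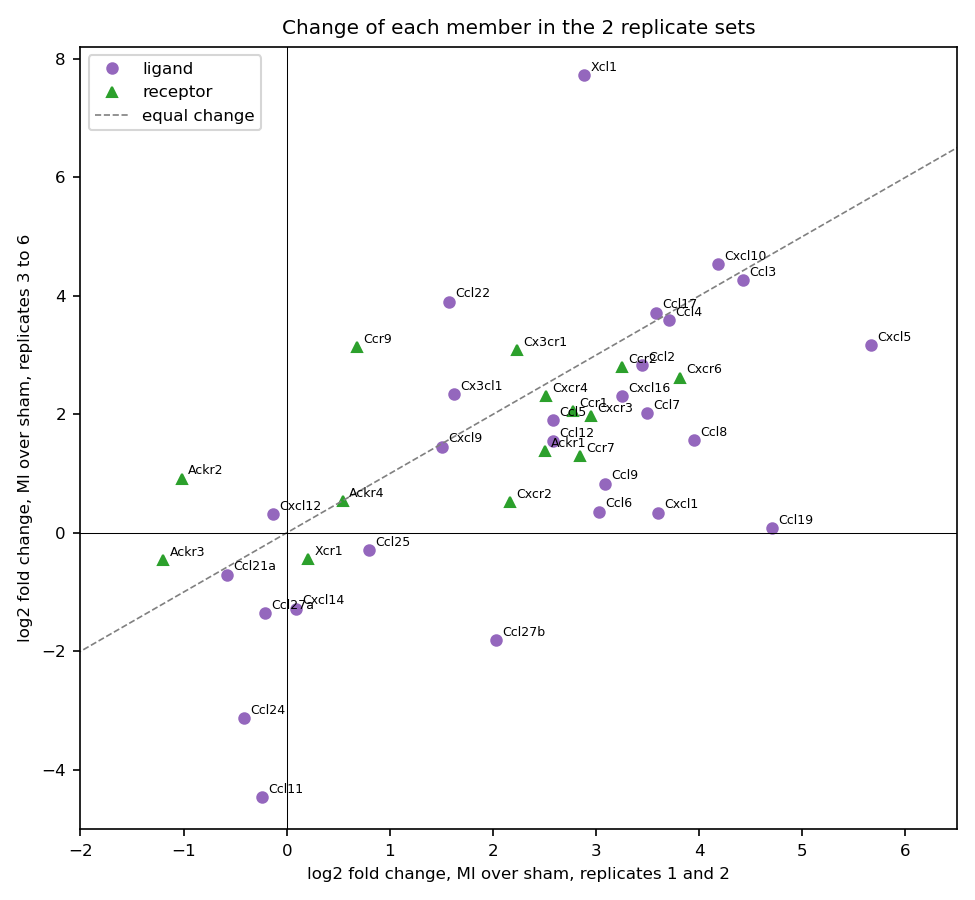
Log2 fold change (MI over sham) in replicates 3 to 6 against that in replicates 1 and 2 for 41 members tested in both sets, with circles for ligands, triangles for receptors and a dashed line of equal change. Most members lie in the upper right, with Ccl6, Ccl9, Ccl19 and Cxcl1 far below the line and Ccl11, Ccl24 and Ccl27b below 0 in replicates 3 to 6.

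Levels can be compared between genes only per transcript length, as TPM, a unit in which each library's transcripts add up to the same total. By mean TPM the leading ligands of sham were Ccl21a (136 in replicates 1 and 2, 109 in replicates 3 to 6) and Cxcl12 (119 and 99.7). After MI, Cxcl12 (309 and 223), Cxcl16 (259 and 155) and Ccl6 (184 and 119) led. Among receptors Ackr3 led in sham (59.1 and 50.1 TPM) and Cxcr4 followed Ackr4 (6.30 and 6.25 TPM for Cxcr4). Cxcr4 reached 57.8 and 47.4 TPM after MI, where it led the receptors in replicates 1 and 2 and came after Ackr3 in replicates 3 to 6. TPM levels were not tested. Cxcl12 is higher after MI in TPM while its TMM-scaled CPM groups overlap. Neither Ccl21a nor Ackr3, the members called lower, had a lower mean TPM after MI in both sets. Mean TPM of Ccl21a after MI was 144.6 in replicates 1 and 2, above sham, and lay below sham in replicates 3 to 6. Its sham and MI libraries overlapped in TPM in both sets. For Ackr3 it was 41.17 after MI in replicates 1 and 2, below sham, and 55.32 in replicates 3 to 6, above sham. The cause of these differences between TPM and TMM-scaled CPM was not tested.

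Over the 12 libraries 12 members were left untested, 11 of them with few counts. Ccr3, the eosinophil receptor, had 0 counts in sham and 12 in MI of replicates 1 and 2, and 0 and 29 in replicates 3 to 6, at least 2.48-fold and 4.88-fold higher with the floor of 3 counts over the group. Cxcr5, the Cxcl13 receptor of B cells, had 1 and 12 counts in replicates 1 and 2 and 13 and 8 in replicates 3 to 6. Ccl1, Ccl20, Ccl28, Ccr1l1, Ccr4, Ccr6, Ccr8, Ccr10 and Cxcr1 had at most 25 counts in any group of a set. The other, Ccl21c, has no values in replicates 1 and 2. In replicates 3 to 6 it had 215 counts in sham and 132 in MI and was called lower there.

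Genes that act with chemokines were read from lists of pathway members, beside 27.3% of all tested genes called higher and 28.7% called lower. Of 16 genes of the Rac and actin machinery of cell migration, 13 rose, among them the kinase Pak1 (2.44) and the Rac exchange factors Prex1 (1.7) and Vav1 (2.47), and 3 were not called, including Cdc42 (0.6). Of 13 G proteins and lipid kinases downstream of the receptors, 9 rose, 1 fell and 3 were not called. Phospholipase Plcb2 (1.72), Gnai3 (1.17) and the PI3K-gamma subunit Pik3r5 (3.46) rose, and the abundant Gnai2 (0.38) was not called. The kinase Akt1 fell (-0.49) and is named after its value was seen, as the only such gene. The median change of the lists was 1.81 and 0.58, beside 0.03 for all genes.

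Of 10 genes that desensitise receptors, 5 rose, 1 fell and 4 were not called, with beta-arrestin Arrb2 (1.82) and the G protein regulator Rgs1 (6.55) rising and Rgs5 (-1.01), a gene of pericytes, falling. Of 8 tested proteases that trim or shed chemokines, 6 rose, including Adam10 (1.11), which sheds Cx3cl1 and Cxcl16, Mmp14 (3.33) and the macrophage elastase Mmp12 (6.47), and 2 were not called, including Dpp4 (-0.25), which trims Cxcl12 and Cxcl10. Of 4 chemokines or decoys named outside the pattern, the platelet chemokine Pf4 fell (-0.6), and Ccrl2 (-0.84), Mif (-0.32) and Ppbp were not called. The median change was 0.17 for desensitisation, 1.46 for proteases and -0.46 for the genes outside the pattern. Platelet markers, 2 of 3 of which rose, summed to 3.98 to 5.34 CPM in sham and 6.13 to 15.4 CPM in MI, with none at 0.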

How the data were processed

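Per the labels, mRNA was enriched with oligo(dT) from total RNA. The submitters' processing notes name Bowtie2, RSEM and DESeq2 for replicates 3 to 6 and no tool for replicates 1 and 2, and GRCm38 for all. The deposited table holds expected counts, unscaled, with TPM and FPKM that the authors scaled by transcript length and library. It is blank for 425 genes in replicates 1 and 2. A further deposited FPKM table covers replicates 1 and 2: of 228 member values in both, 53 agree within 0.01 FPKM and the largest difference is 7.50. The sources used here do not say whether reads were counted by strand.

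Expected counts were rounded and fitted over all genes with edgeR 4.0.16 in R 4.3.3 (TMM scaling, filterByExpr by group and set, set as covariate, Benjamini-Hochberg adjustment). SE is the log2 fold change over the square root of F. Alternatives used DESeq2 1.42.0, and limma 3.58.1 on log2(FPKM + 1) or log2(FPKM + 0.1). The procedure was tested on simulated data. Exact 95% counting intervals, and floors, describe counting error alone. Replicate numbers were not used to pair libraries in the main fit. Same-numbered sham and MI libraries correlated from -0.04 to 0.06. With 2 libraries per group, replicates 1 and 2 must give the same value (0.06), so for them this cannot decide whether numbers pair libraries.

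Members, lists, pairs, tests and the call rule were chosen with earlier results of these data known. Values per library are given for the 5 ligands and 5 receptors with the largest called change at a mean of at least 1 CPM, the 3 most abundant of each class not called or against the majority, members that differ between sets, and their partners (some by range). From each pathway list the text names the 3 genes with the smallest adjusted p and the most abundant exception. Levels are TMM-scaled CPM. Positions and promoters are RefSeq's, of GRCm38.p6. The values of 1 member are not reported here, though counts over members include it.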

Additional observations from a re-analysis of the deposited data

Results flagged for a closer look

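Among groups of 6 libraries of the 36 members named by rule, 71 could be tested for a library far from the rest, and 19 had one. A chance rate of 1 in 20 (3.55) would hold only for 6 libraries of like spread. The groups of 6 mix both replicate sets, and replicates 3 to 6 lie much closer together than replicates 1 and 2. The count of 19 therefore cannot be judged against that rate. MI replicate 2 accounts for 9 and MI replicate 1 for 5. In MI replicate 2 the level stood apart for Ccl3 (9.68 CPM), Ccl4 (10.6 CPM), Ccl9 (116 CPM), Cxcl5 (27.6 CPM), Cxcl12 (289 CPM, the lowest), Cxcl13 (4.22 CPM), Cxcl16 (204 CPM), Cx3cr1 (98.5 CPM) and Cxcr3 (3.76 CPM). In MI replicate 1 it stood apart for Ccl12 (24.4 CPM), Ccl21a (61.3 CPM), Xcl1 (0.62 CPM), Ccr2 (20.3 CPM) and Ackr4 (21.3 CPM), the last 3 being the lowest of their group. Among sham libraries these were Cxcl15 in replicate 1 (0.0229 CPM, from 0.3 expected counts), Xcl1 in replicate 2 (0.298 CPM), Ccl27b (3.46 CPM) and Ackr1 (1.23 CPM) in replicate 4, and Cxcr6 in replicate 6 (1.68 CPM).

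The change after MI differed between the replicate sets by both interaction tests for 6 ligands. The log2 fold change in replicates 3 to 6 minus that in replicates 1 and 2 was -4.27 for Ccl11, -3.88 for Ccl27b, -2.72 for Ccl6, -2.30 for Ccl9, -7.67 for Cxcl13 and -1.41 for Cxcl14.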

How the results depend on the processing

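Leaving out each library in turn gave 22 to 31 members higher and 1 to 2 lower by both tests, against 30 and 2, with 22 reached without sham replicate 1 and the lower count of 1 without MI replicate 2. Within replicates 1 and 2 it gave 26 to 33 higher and 1 to 3 lower, against 35 and 2, with 1 lower without sham replicate 2 or MI replicate 2. Within replicates 3 to 6 it gave 32 to 33 higher and 8 to 10 lower. For the difference between sets it gave 0 to 2 larger and 0 to 16 smaller in replicates 3 to 6, against 0 and 6: smaller counts were 0 without sham replicate 1 or sham replicate 2 and 16 without MI replicate 1, which alone gave 2 larger. The count of members lower by both tests was 1 with library size alone, limma on log2(FPKM + 1), limma on log2(FPKM + 0.1), an adjusted p under 0.01, or no label set. An adjusted p under 0.01 left 19 higher. Within replicates 1 and 2, library size alone left 1 lower. The difference between sets gave 1 member larger with DESeq2, and 6 larger and 17 smaller with the 12 libraries alone. Library size alone called 8157 of all genes higher and 3343 lower, against 5485 and 5357, and 32 members higher. The cause of these shifts was not tested.

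With the replicate number as a block, 30 members were higher and 2 lower by both tests. Among members named by rule, the block ended the calls of Ccl6 (1.14) and Cxcr2 (0.99) and added Ackr1 (1.83), but the numbers were not shown to pair the libraries. Of 744 alternative values for 34 named members, 680 kept direction and call, 43 lost the call, 9 gained it, 12 uncalled values moved and 0 called values changed sign. Low counts limit 11 of the 12 members untested over 12 libraries, and Ccl21c is blank in replicates 1 and 2.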
